A study of Mus musculus with 2 samples.

Results

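Expression of 8 CXC chemokines and 2 of their receptors was examined in lungs carrying tumours of Lewis lung carcinoma (LLC), a carcinoma line of C57BL mice that seeds the lung from the bloodstream. The members were chosen by name: the ligands Cxcl1, Cxcl2, Cxcl5, Cxcl9, Cxcl10, Cxcl12, Cxcl14 and Cxcl16 and the receptors Cxcr2 and Cxcr4. They are 10 of the 18193 genes named on the array and were read by 17 of its 45037 probe sets. The hosts were C57BL/6 mice 6 to 8 weeks old, each given 500000 cells in 200 µL through a tail vein. In the vector control group the LLC cells had been transfected with vector, and in the TDAG8 group they overexpressed TDAG8, the proton-sensing receptor encoded by Gpr65. All mice carried injected LLC cells, so the comparison is between 2 kinds of tumour-bearing lung, and no lung without tumour cells was analysed here. Lungs were taken on day 19, and the total RNA of 10 mice per group was combined and read on 1 Affymetrix array. The sources used here do not say whether the transfected cells were a single clone. Because each group had 1 array, nothing could be checked against replicates, no test was run, and every difference describes these 2 pools.

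CXC chemokines are small secreted proteins that steer leukocytes through receptors coupled to the inhibitory G protein, and they fall into groups by the cells they attract. Cxcl1, Cxcl2 and Cxcl5 bind Cxcr2 and draw neutrophils out of blood into inflamed tissue, the lung included, and NF-κB drives their transcription after stimuli such as interleukin 1. Cxcl9 and Cxcl10 are induced by interferons and attract activated T and natural killer cells through Cxcr3. Cxcl12, made by stromal and endothelial cells, binds Cxcr4 and holds or recruits progenitors, lymphocytes and tumour cells, whereas Cxcl14 is an epithelial and stromal chemokine of healthy tissue. Cxcl16 is made as a membrane-bound protein and binds Cxcr6.

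Promoters were searched for motifs of the known regulators of these ligands. RefSeq promoter sequence (build GRCm38.p6) was available for 8 of the 10 members. The 250 bases before the start were searched on both strands for GGG and TTCC with 3 bases between them, a form of the NF-κB site, and for GAAA followed after 2 bases by GAAA, the core of the interferon-stimulated response element. Of 32851 mouse promoter windows of this length, 4.65% held the first motif and 2.98% the second. The windows of the 4 ligands that were at least 2-fold higher in the TDAG8 pool by 1 or more probe sets are shown 5′ to 3′ along the gene, with capitals where either motif matched. They lie at chr5:90890995-90891244 (plus strand), chr5:90903649-90903898 (plus strand), chr5:92328080-92328329 (minus strand) and chr5:92348890-92349139 (minus strand).
Cxcl1: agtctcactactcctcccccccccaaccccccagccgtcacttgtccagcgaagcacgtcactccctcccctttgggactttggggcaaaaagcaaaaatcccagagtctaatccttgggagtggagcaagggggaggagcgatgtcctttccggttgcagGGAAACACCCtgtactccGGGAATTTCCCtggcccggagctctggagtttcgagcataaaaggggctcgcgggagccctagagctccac
Cxcl2: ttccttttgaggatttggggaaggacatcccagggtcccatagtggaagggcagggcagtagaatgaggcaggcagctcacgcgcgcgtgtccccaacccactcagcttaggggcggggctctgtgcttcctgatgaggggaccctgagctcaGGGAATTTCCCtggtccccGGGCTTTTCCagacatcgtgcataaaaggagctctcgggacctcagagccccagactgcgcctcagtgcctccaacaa
Cxcl9: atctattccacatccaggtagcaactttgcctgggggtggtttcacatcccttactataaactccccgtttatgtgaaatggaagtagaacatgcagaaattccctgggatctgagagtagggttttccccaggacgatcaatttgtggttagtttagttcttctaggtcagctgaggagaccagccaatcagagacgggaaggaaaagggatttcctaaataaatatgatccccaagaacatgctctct
Cxcl10: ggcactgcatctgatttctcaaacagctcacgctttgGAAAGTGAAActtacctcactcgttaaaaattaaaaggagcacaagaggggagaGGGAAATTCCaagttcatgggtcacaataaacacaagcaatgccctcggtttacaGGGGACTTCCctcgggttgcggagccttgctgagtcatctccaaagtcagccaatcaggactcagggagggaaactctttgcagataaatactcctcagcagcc
Cxcl1 and Cxcl2 each held 2 stretches matching the NF-κB form. One of them, GGGAATTTCCC, was the same in both genes and reads as 2 overlapping matches, on opposite strands. It lay 71 to 61 bases before the start of Cxcl1 and 97 to 87 bases before that of Cxcl2, inside a run of 14 identical bases, GGGAATTTCCCTGG. That was the longest run shared by the upstream windows of any pair among the 8 members. Cxcl10 held 2 NF-κB forms, GGGAAATTCC and GGGGACTTCC, and 1 interferon element, GAAAGTGAAA. Neither motif, as spelled here, was in the Cxcl9 window, which says only that these letters are not there. Of the other members, Cxcl14 held 1 interferon form, GAAACAGAAA, and Cxcl12, Cxcr2 and Cxcr4 held neither motif.

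Both arrays had been scaled by the submitters to a trimmed mean intensity of 100. Dim probe sets were handled with a floor, the 50th percentile of each array, which was 26.3 for the vector control and 24.3 for TDAG8. Values under it were raised to it, so ratios to them are lower bounds, given as at least so many fold. Ratios are TDAG8 over vector control on the log2 scale, centred by -0.06 so that the median gene above the floor on both arrays sits at 0. Where 2 probe sets of a gene were above the floor on both arrays (4775 genes), the difference between their log2 ratios was taken. Its SD divided by the square root of 2 was 0.25, a spread per probe set. A gap between 2 probe sets spreads more widely than that. The 0.25 is a spread between probe sets on the same arrays and holds nothing of the spread between mice. Gpr65, the overexpressed gene, had intensities of 32.3 and 73.9, 2.38-fold higher in the TDAG8 pool, by 1 probe set near the floor that may or may not read the transfected sequence. The lung markers Sftpc, of alveolar type 2 cells, and Scgb1a1, of club cells, were bright in both pools, at 7476 and 6605 and at 10112 and 8731.

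**Figure D1:**
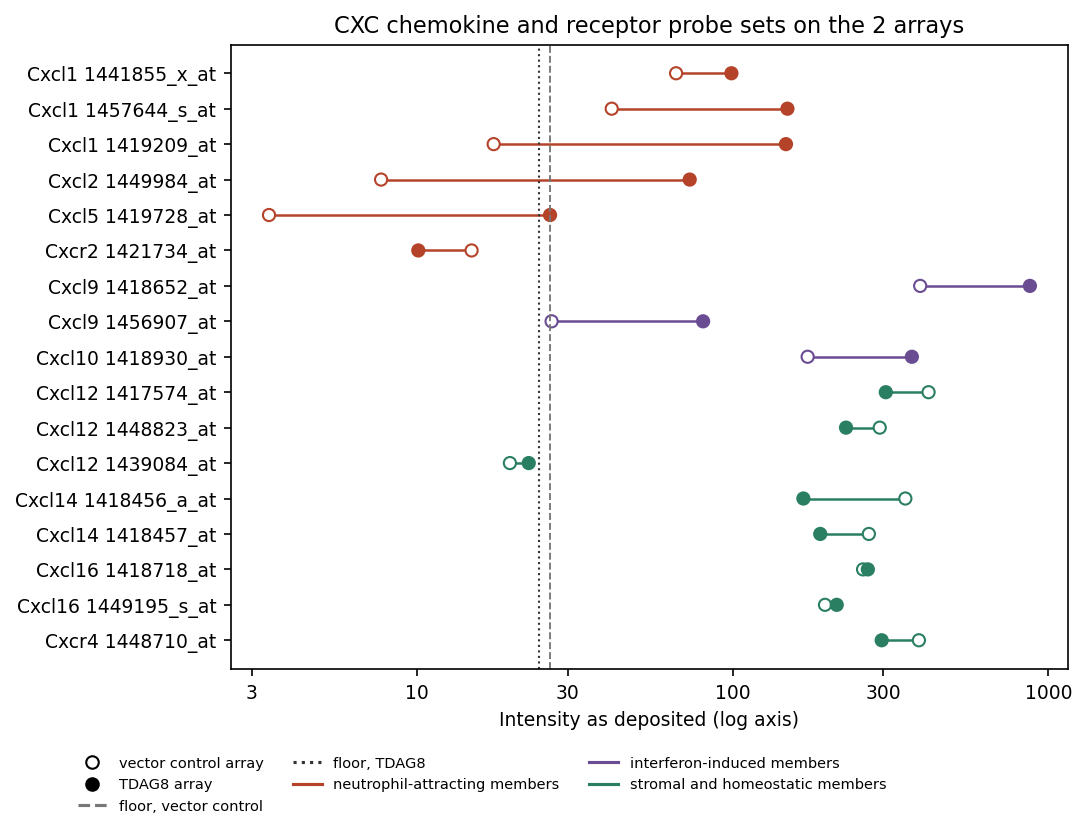
Deposited intensity (log axis) of each of the 17 member probe sets in the vector control array (open circles) and the TDAG8 array (filled circles), with the floor of each array as a vertical line. The probe sets of Cxcl2 and Cxcl5 and the lowest row of Cxcl1 cross from below the floor to above it, both Cxcr2 values lie below it, and the Cxcl9 and Cxcl10 probe sets end to the right of where they start. Different probe sets bind with different efficiency, so levels are comparable along a row and not between rows.

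The 3 neutrophil-attracting ligands among the members were dim or below the floor in the vector control pool and higher in the TDAG8 pool. Cxcl2 went from 7.7, below the floor, to 73.1 and was at least 2.89-fold higher. Its bound follows the floor: a floor at the 30th percentile made it at least 8.86-fold and one at the 65th at least 1.21-fold, where the 2-fold call is lost.

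Cxcl1, the closest relative of Cxcl2 in this set, was read by 3 probe sets, all higher in the TDAG8 pool but by different amounts. The _at probe set, which carries no suffix for shared sequence, went from 17.5, below the floor, to 147.5, at least 5.84-fold. The _s_at probe set went from 41.4 to 149.1, a log2 ratio of 1.91 or 3.75-fold. The _x_at probe set went from 66.2 to 99.1, a log2 ratio of 0.64 or 1.56-fold. The 3 share their direction, and the gap between the _x_at value and either of the others is several times the probe set SD of 0.25. In Affymetrix naming the suffixes _s_at and _x_at mark probes that can bind more than 1 transcript, so the _x_at value, which by its mean level stood for the gene, is uncertain. Without such probe sets Cxcl1 was at least 5.93-fold higher, and the mean over its probe sets, which takes in the bound of the _at probe set, gave a log2 ratio of at least 1.70.

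Cxcl5, made by epithelial cells of the inflamed lung, went from 3.4 to 26.4, just over the TDAG8 floor of 24.3. Measured against the control floor it was at least 1.05-fold higher, a bound that says little, and with the floor at the 65th percentile Cxcl5 was below it on both arrays. Cxcl5 is thus higher in the TDAG8 pool as deposited, at an intensity near the floor.

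Cxcr2, the receptor through which all 3 of these ligands act on neutrophils, had intensities of 14.9 with vector control cells and 10.1 with TDAG8 cells. Both lay below the floor, so no ratio is given. With the floor at the 30th percentile, which admits it, the log2 ratio of Cxcr2 was -0.48.

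**Figure D2:**
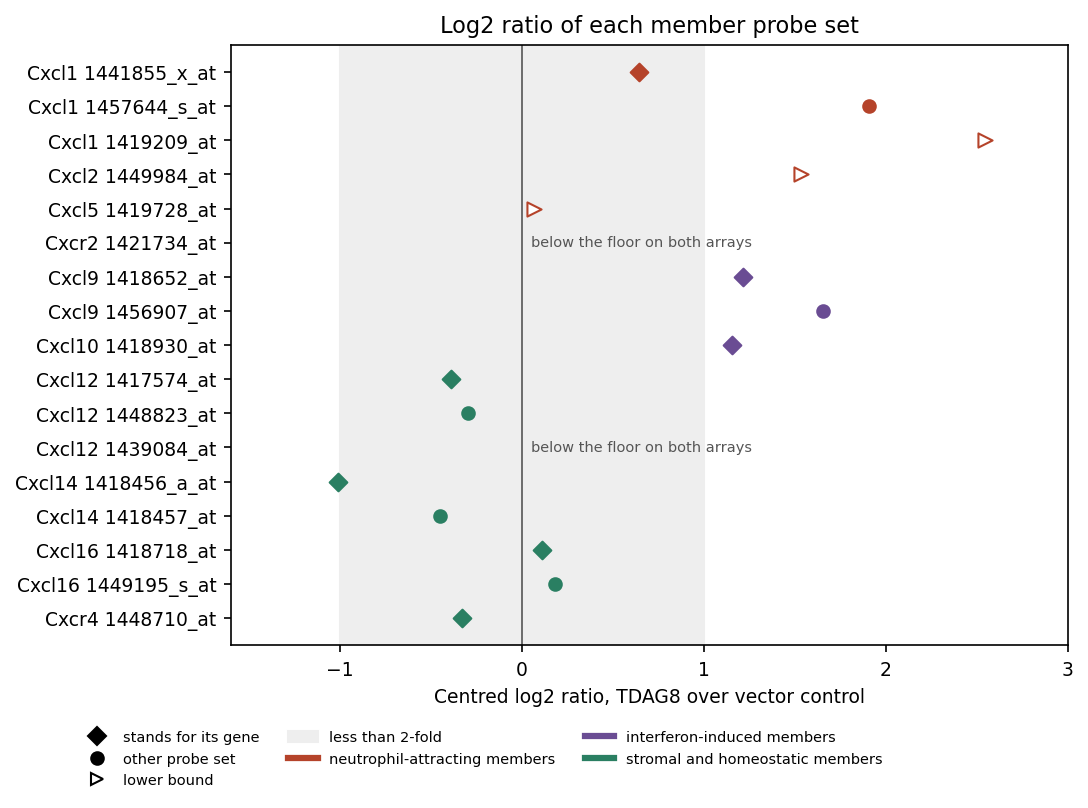
Centred log2 ratio of TDAG8 over vector control for each member probe set, with the range under 2-fold shaded. Diamonds mark the probe set that stood for its gene, circles its other probe sets, and open triangles lower bounds. The red points of the neutrophil-attracting ligands run from 0.06 to 2.55, the violet points of Cxcl9 and Cxcl10 all lie above 1, and the green points of the stromal and homeostatic members lie between -1.01 and 0.18.

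Both interferon-induced ligands were above the floor in both pools and more than 2-fold higher in the TDAG8 pool. Cxcl9 went from 392.6 to 873.9 by its brighter probe set, a log2 ratio of 1.21 or 2.32-fold. Its dimmer probe set went from 26.7, just above the floor, to 80.6, a log2 ratio of 1.65. Cxcl10 went from 172.8 to 369.5, a log2 ratio of 1.15 or 2.23-fold. All 3 probe sets of the pair were thus past 2-fold. Under the 8 alternative settings Cxcl9 ranged from 1.15 to 1.44 and Cxcl10 from 1.05 to 1.18 on the log2 scale, and neither dropped under 2-fold in any of them. Cxcl10 was read by 1 probe set well above the floor, so the floor and probe set settings had little room to move it. Their receptor Cxcr3, of activated T and natural killer cells, was not a member and went the other way, from 67.6 to 52.1, a log2 ratio of -0.32.

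The stromal and homeostatic members were lower or little different. Cxcl12 went from 417.3 to 305.5 by one probe set, a log2 ratio of -0.39, and from 292.3 to 228.6 by another, a log2 ratio of -0.30. The remaining probe set was below the floor in both pools, at 19.7 and 22.6. The pair that could be read gave similar values, both lower by less than 1.5-fold. Cxcr4, the receptor of Cxcl12, went from 388.9 to 296.5, a log2 ratio of -0.33, so that ligand and receptor were lower by a similar amount. These differences are smaller than the SD of 0.55 of the log2 ratio over all genes above the floor on both arrays.

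Cxcl14 had the lowest ratio of the members, but its 2 probe sets differ. The _a_at probe set went from 352.3 to 167.5, a log2 ratio of -1.01 or 2.02-fold lower, and the _at probe set from 270.0 to 189.4, a log2 ratio of -0.45. Both were lower in the TDAG8 pool, and the gap between them is more than the probe set SD. The 2-fold call is lost at -0.996 under the floor at the 30th percentile, at -0.91 when an offset replaces the floor, at -0.73 for the mean over probe sets and at -0.43 for the _at probe set alone. Cxcl16 was nearly level, at 258.8 and 268.0 by one probe set and 196.1 and 213.6 by the other, with log2 ratios of 0.11 and 0.18. Neither differs from 0 by more than the probe set SD.

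Set side by side, the 3 measured neutrophil-attracting genes had a median log2 ratio of 0.64, the 2 interferon-induced ligands 1.18 and the 4 stromal and homeostatic members -0.36. The median over all 11949 measured genes was -0.00094. The first of these medians is the Cxcl1 value of the _x_at probe set and, since the values of Cxcl2 and Cxcl5 are bounds, is a lower bound itself. It was 1.54 with the mean over probe sets, above that of the interferon-induced pair (1.30) under that setting, so the order of these groups is not settled. The stromal median lay between -0.42 and -0.33 under every alternative. Of the 9 measured members, Cxcl2, Cxcl9 and Cxcl10 were at least 2-fold higher, where 5.41% of all measured genes were. Cxcl14 alone was at least 2-fold lower, where 1.19% of all genes were. Cxcl2 and Cxcl5 were measured only because the TDAG8 array lifted them over the floor, which fixed their direction, so these counts are a description. By probe set, 6 of the 15 measured were at least 2-fold higher, against 4.68% of the 23843 probe sets measured, and 1 was at least 2-fold lower, against 1.13%. Cxcl1 and Cxcl9 each entered the 6 by more than 1 probe set. The _at probe set of Cxcl1, like that of Cxcl2, was measured only through the TDAG8 array, so this count too is a description. The RNA was of whole lung, in which more cells of a type and more RNA per cell cannot be told apart.

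**Figure D3:**
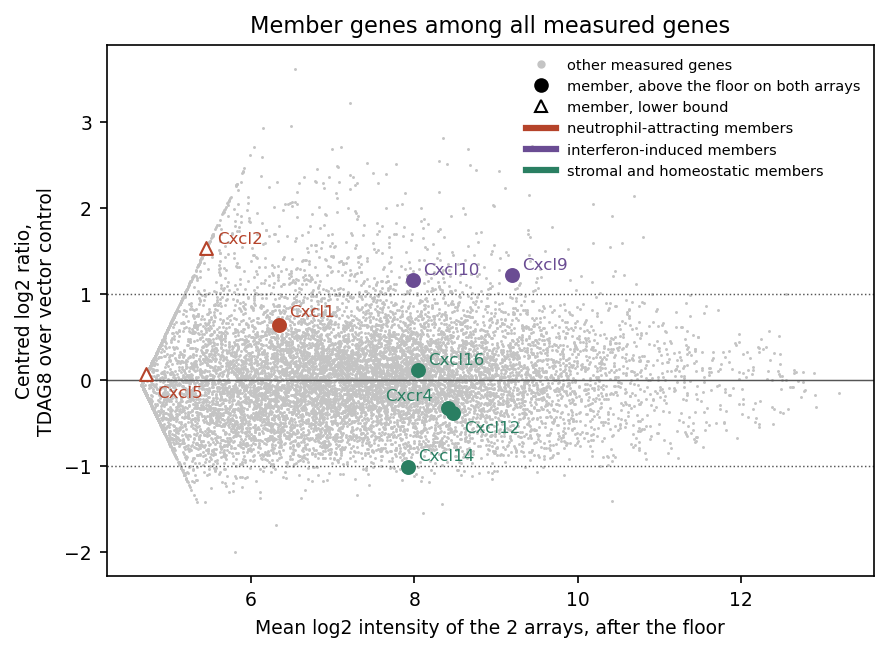
Centred log2 ratio against the mean log2 intensity of the 2 arrays for all 11949 measured genes (grey) and the 9 measured members (coloured by group, open triangles for lower bounds). Dotted lines mark 2-fold. Cxcl9 and Cxcl10 lie above the upper line at intensities where the grey cloud is dense, Cxcl2 lies on the edge set by the floor, Cxcl14 touches the lower line, and the remaining stromal and homeostatic members lie inside the cloud.

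The other CXC ligands were mixed, and the 6 above the floor on both arrays differed by less than 2-fold. Cxcl3, the third close relative of Cxcl1 and Cxcl2, went from 5.0, below the floor, to 31.7 and was at least 1.26-fold higher, a bound that leaves its size unknown. With the floor at the 30th percentile the bound was 1.94 on the log2 scale, past 2-fold. Cxcl11, the remaining ligand of Cxcr3, went from 33.8 to 50.8, a log2 ratio of 0.65; RefSeq lists it as a transcribed pseudogene in this strain. Cxcl13, which attracts B cells through Cxcr5, had log2 ratios of 0.67 and 0.71 by its 2 probe sets. The platelet chemokines went apart: Pf4 from 288.9 to 442.5, a log2 ratio of 0.67, and Ppbp, another ligand of Cxcr2, from 290.2 to 204.1, a log2 ratio of -0.45. The epithelial chemokines of the lung were lower, Cxcl15 from 4526 to 3562, a log2 ratio of -0.29, and Cxcl17 from 443.5 to 280.4, a log2 ratio of -0.60.

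Of the other receptors, 5 of 6 could be read and none was 2-fold different. Cxcr5 of B cells went from 37.7 to 30.5, a log2 ratio of -0.25. Cxcr6, the receptor of Cxcl16, had log2 ratios of 0.22 and 0.43 by its 2 probe sets. Ackr3, a scavenging receptor that removes Cxcl12, went from 371.1 to 431.7, a log2 ratio of 0.28, against the lower values of Cxcl12 and Cxcr4. Ackr1, a chemokine-binding receptor of red cells and venules, sat at the floor, at 25.8 and 25.4.

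Most of the CXC ligand genes lie together on chromosome 5, and neighbours there had ratios of opposite sign. In the RefSeq order of assembly GRCm38.p6, Cxcl5, Ppbp, Pf4, Cxcl3, Cxcl15, Cxcl1 and Cxcl2 follow each other with 0 other protein-coding genes between them. Within that run Ppbp and Cxcl15 were lower and the other 5 higher. Cxcl9, Cxcl10 and Cxcl11 form a second group after 16 other protein-coding genes, and all 3 were higher, with 1 other gene between the first pair. Each of these 10 genes kept its direction under the 3 other scalings (no centring, quantile normalization and loess centring), which for Cxcl2, Cxcl3 and Cxcl5 the floor had fixed.

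**Figure D4:**
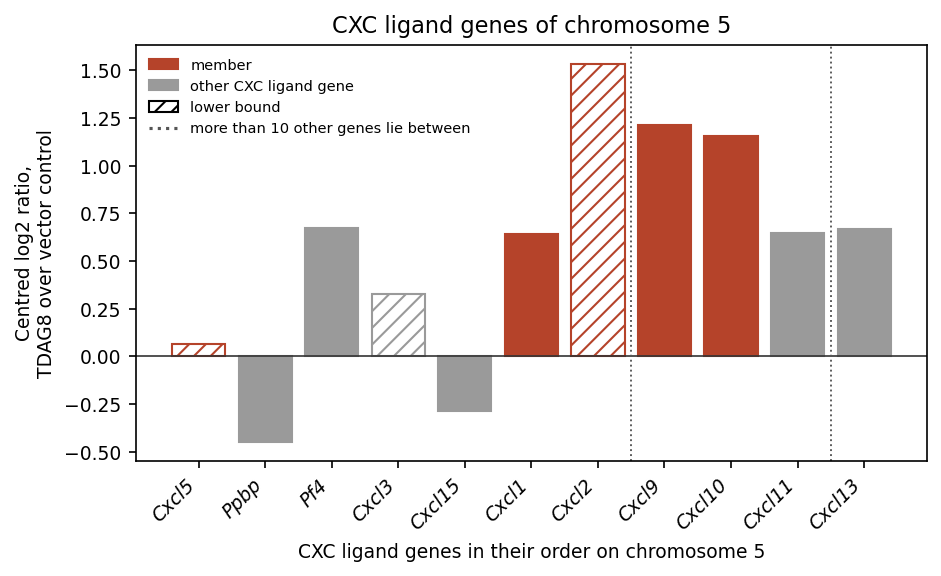
Centred log2 ratio of the 11 CXC ligand genes of chromosome 5 in their RefSeq order, which is not a distance scale. Members are red, other ligand genes grey and lower bounds hatched, and dotted lines mark where more than 10 other genes intervene. Ppbp at -0.45 and Cxcl15 at -0.29 point down among neighbours that point up.

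Genes of the NF-κB and interleukin 17 axis were more often higher than lower, and few by 2-fold. The list holds inducers of the neutrophil-attracting ligands, parts of the pathway and other targets of NF-κB such as Ptgs2, Icam1 (-0.50) and Birc3 (-0.07). Of its 25 genes, 18 were measured, 13 had ratios above 0 and 5 below, and the median log2 ratio was 0.50, where all measured genes split into 5963 above 0 and 5986 below. Il1b, the cytokine interleukin 1 beta, went from 67.5 to 183.0, 2.82-fold, and Ptgs2, the inducible cyclooxygenase, from 89.8 to 219.4, 2.54-fold, the only 2 past 2-fold. Nfkbie, an inhibitor of NF-κB that is itself a target of it, was at 0.82. The cytokine genes Tnf, Il6, Il1a, Il17a and Csf3 were below the floor in both pools, named here because they are known inducers and chosen after their values were seen.

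Interferon pathway genes had a lower median ratio than the 2 interferon-induced ligands. Of 28 listed, 25 were measured, 21 had ratios above 0 and 4 below, and the median log2 ratio was 0.49. Mx1, a known interferon-induced gene, went from 33.9 to 66.3, a log2 ratio of 1.03. Tap1, the peptide transporter of antigen presentation, was at 0.79 and Irgm1, an interferon-induced GTPase, at 0.68. Mx1 and Socs1, a feedback inhibitor below the floor in the vector control with a ratio of at least 1.06, were the 2 past 2-fold, and 0 were past it with the higher floor or with an offset. Ifng, the interferon gamma gene, was below the floor in both pools, at 14.7 and 18.7, and was also named after its values were seen. A list of proteases that can act on chemokines, with the cytokine gene Mif and a receptor for Mif, was level. Its median was 0.09 over 7 measured genes. Within it Dpp4, a protease that trims Cxcl9, Cxcl10 and Cxcl12, went from 250.8 to 155.5, a log2 ratio of -0.63. Adam17, which sheds membrane proteins, was at 0.87. Mif, a cytokine that also binds Cxcr2 and Cxcr4, went from 719.7 to 2588, 3.74-fold.

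Markers of the cells that these chemokines attract or that make them moved as well, and their part in the member ratios was not tested. Of 19 neutrophil markers 12 were measured, 10 had ratios above 0, and the median log2 ratio was 0.42. Of the 12, 2 were above the floor only on the TDAG8 array, which fixed their direction. Over the 10 markers above it on both arrays the median was 0.34. The summed intensity of the 16 with a probe set, in which the brightest weigh most, was 2664 with vector control cells and 2935 with TDAG8 cells. Clec4d, a myeloid lectin also found on monocytes, was 4.67-fold higher, Csf3r, the receptor for the neutrophil growth factor, was at 0.63 and the granule gene Ltf at -0.56, while S100a8 was at 0.10. The granule genes Ngp, Camp, Elane and Mpo were below the floor in both pools, as Cxcr2 was. Of 11 monocyte and macrophage markers 10 were measured, 8 had ratios above 0 and 5 of them were past 2-fold. The median was 0.96 and the summed intensities were 9205 and 9567. Of the 5, 1 was above the floor only on the TDAG8 array, which fixed its direction. Over the 9 markers above it on both arrays the median was 0.85. Itgam was 3.32-fold, Fcgr1 3.28-fold and Cd68 2.42-fold higher. Of 12 T and natural killer cell markers 8 were measured, 6 above 0 and 2 below, with a median of 0.14. The 10 with a probe set had summed intensities of 865.1 and 814.8. Cd8a was at 0.68, Cd3e at 0.55 and the granzyme gene Gzma at -0.49.

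Markers of endothelium and of lung epithelium were lower, and those of fibroblasts were mixed. All 8 endothelial markers had ratios below 0, with a median of -0.68 and summed intensities of 6969 and 4255. The lowest were the receptor genes Tek (-0.82) and Kdr (-0.77) and the cadherin gene Cdh5 (-0.75). The 6 alveolar type 2 markers had a median of -0.49 and sums of 27627 and 20521, with Napsa (-0.58), Sftpb (-0.52) and Slc34a2 (-0.50) lowest. The 4 airway markers had a median of -0.44 and sums of 23212 and 18031, with Foxj1 (-0.81), Scgb3a2 (-0.55) and Cyp2f2 (-0.34) lowest. Of 9 fibroblast markers 6 were below 0, with a median of -0.27 and sums of 10933 and 10706; Lum, a proteoglycan of matrix, was 2.20-fold higher, Tcf21 was at -0.71 and Pdgfrb at -0.52. By probe sets free of the suffixes, 4 fibroblast genes were above 0 and 5 below, with a median of -0.017. Beside these lists stand the log2 ratios of Cxcl12 (-0.39) and Cxcr4 (-0.33), just above the endothelial range (-0.82 to -0.40). Both lay within the ranges of alveolar type 2 (-0.58 to -0.12), airway (-0.81 to -0.15) and fibroblast (-0.71 to 1.14) markers. They also lay within those of B cell (-0.64 to -0.16) and platelet (-0.72 to -0.05) markers. Cxcl14 was at -1.01 by its _a_at probe set, below all these ranges. By its _at probe set it was at -0.45, within all of them. Any link between these lists and the member ratios was not tested. Of 6 platelet markers 4 were measured, with a median of -0.32. For 1 of them, above the floor only on the vector control array, the floor fixed the direction. Over the 3 above it on both arrays the median was -0.46. The 5 with a probe set had sums of 192.7 and 139.4. Treml1 was at -0.72, Gp1bb at -0.46 and Itga2b at -0.05. The 4 measured B cell markers had a median of -0.34 and sums of 547.7 and 405.3, with Ms4a1 at -0.64, Cd79a at -0.39 and Cd79b at -0.29. None of the markers in these lists was at an intensity of 0. All 11 measured proliferation genes passed 2-fold upwards, the median being 2.30 and sums of 1283 and 5751, with Bub1 at 2.71, Cdk1 at 2.54 and Aurka at 2.48.

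**Figure D5:**
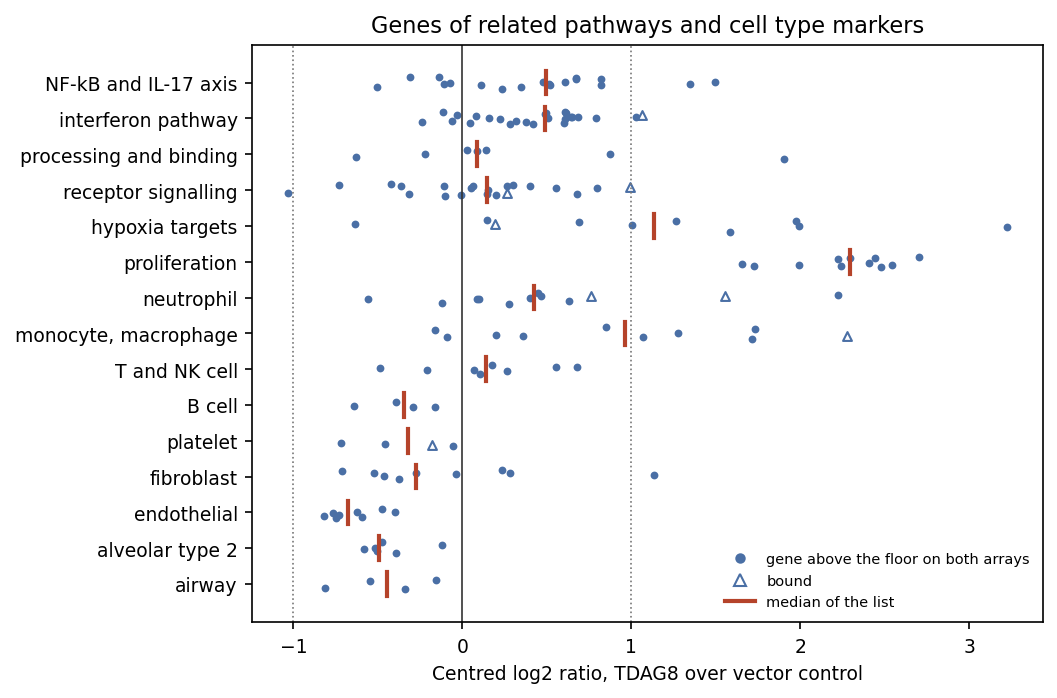
Centred log2 ratio of each measured gene of the related pathways and of the cell type marker lists (points, open triangles for bounds), with the median of each list as a red bar and dotted lines at 2-fold. The medians of the NF-κB axis (0.50), the interferon pathway (0.49) and neutrophil markers (0.42) lie right of 0, those of endothelial (-0.68) and alveolar type 2 markers (-0.49) left of it, and proliferation genes lie farthest right.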

How the data were processed

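The data were 2 arrays of whole-lung RNA, each a pool of 10 mice, labelled as biotin cRNA from 2 µg of total RNA by the Affymetrix procedure, per the labels' protocols. The authors deposited a linear intensity for each probe set, with a trimmed mean of 100 on each array (2% left out at each end). The sources used here do not name the software behind them, and no detection calls came with them. Both columns matched a sample by name. After 64 control probe sets were set aside, 45037 remained: 34945 with 1 gene symbol in the platform annotation, 932 with several and 9160 with none. Only the first were named, 34741 of them through RefSeq gene identifiers (GRCm38.p6).

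A gene with several probe sets was represented by the brightest (mean of both log2 intensities), and all probe sets of the members are given. The floor, centring and ratio are described with the values; 11949 genes were measured, that is above the floor on 1 array or more, and 11044 lay above it on both. A call means 2-fold. The procedure was tested on simulated data, with differences planted only in bright genes and scored only above the floor on both arrays. That test says nothing about ratios near or against the floor, such as those of Cxcl1, Cxcl2 and Cxcl5. The members, groups, 20 gene lists and motifs were chosen with earlier results of these data known. Other genes were named by rule. All remaining CXC ligands and receptors were named. From each other list came the 3 genes with the largest difference above the floor on both arrays. Those named outside this rule (Sftpc, Scgb1a1, Socs1, Rgs1, Icam1, Birc3, S100a8, Vegfa, Hif1a, Bnip3 and genes below the floor) were chosen after their values were seen. No gene was named for a similar pattern, since 2 arrays give 1 ratio per gene. Calculations used Python 3.11.15, numpy 2.4.6, pandas 2.3.3 and statsmodels 0.14.6. As 8 alternatives, ratios were left uncentred, normalized by quantiles or centred by loess with a span of 0.3. The floor was set at percentile 30 or 65 or replaced by an offset, the array's own 50th percentile added before the log. Genes were also read by the mean over their probe sets, or only by probe sets without the suffixes _s_at, _x_at and _a_at.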

Additional observations from a re-analysis of the deposited data

How the results depend on the processing

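Over 8 alternatives, 96 of 111 recomputed values stayed within the probe set SD of 0.25 or, for counts, within 1.5 times. Leaving ratios uncentred shifts each by 0.06, so no ratio could leave that range under that alternative. With the floor at the 30th percentile Cxcl2 was at 3.15, Cxcl5 at 1.68 and the neutrophil-attracting median, which then includes Cxcr2, at 1.17, and 345 genes were 2-fold lower in place of 142. Under the floor at the 65th percentile Cxcl2 was at 0.28 and Cxcl5 had no value, and 419 genes were 2-fold higher in place of 646 and 68 lower. With an offset Cxcl5 was at 0.84 and 31 genes were 2-fold lower. With the mean over probe sets Cxcl1 was at 1.70, Cxcl14 at -0.73 and the neutrophil-attracting median at 1.54. With only probe sets free of the suffixes, Cxcl1 was at 2.57, Cxcl14 at -0.43 and that median at 1.56. These shifts follow from the floor or from which probe sets were used. All values given for Cxcl2 and Cxcl5, both of those for Cxcl1 and the neutrophil-attracting medians, which rest on them, are lower bounds, except those with the offset. No paired analysis was possible because each group had 1 array. The number of arrays limits the precision of every value, and signals near the floor are the least certain.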

Other observations

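Genes that carry or damp signals of chemokine receptors were mixed. Of 23 listed genes 21 were measured, 13 with ratios above 0 and 8 below, with a median log2 ratio of 0.14. Of the 21, 2 were above the floor only on the TDAG8 array, which fixed their direction. Over the 19 above it on both arrays the median was 0.06. Grk3, a kinase that desensitises G protein-coupled receptors, went from 315.2 to 148.3, 2.04-fold lower, and Arrb1, a beta-arrestin that binds phosphorylated receptors, was at -0.73. Rgs19, which speeds the switching-off of inhibitory G proteins, was at 0.80. Rgs1, an inhibitor of G protein signalling in lymphocytes, went from 25.8, below the floor, to 50.2 and was at least 1.99-fold higher. Of the genes of the list above the floor on both arrays, Grk3 alone was past 2-fold. With the offset, the mean over probe sets or only probe sets free of the suffixes 0 genes were 2-fold lower. Quantile normalization, loess centring, the mean over probe sets and probe sets free of the suffixes each gave 1 gene 2-fold higher. With the floor at the 30th percentile 2 genes were 2-fold higher.

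Of 10 genes of the response to low oxygen, 9 had ratios above 0, 6 of them past 2-fold, the median being 1.13. Of the 9, 1 was above the floor only on the TDAG8 array, which fixed its direction. Of all measured genes 5.41% were at least 2-fold higher. The count past 2-fold was 5 without centring, with quantile normalization or with loess centring. It was also 5 with the floor at the 65th percentile or with an offset, and 7 with the mean over probe sets. Hif1a, which encodes a subunit of the hypoxia-inducible factors, was among the 6 at 2.40-fold. Egln3 went from 49.4 to 443.4, 9.35-fold, Slc2a1 was 3.99-fold and Adm 3.93-fold higher. The gene below 0 was Vegfa, which went from 935.1 to 577.1, a log2 ratio of -0.64, and Bnip3 was nearly level at 0.15. Cxcl12 and Cxcr4 are both known as targets of the hypoxia-inducible factors, and their log2 ratios in these pools were -0.39 and -0.33. Any link between the low-oxygen genes and the member ratios was not tested.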
